A study of Equus caballus with 12 samples.

Results

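Genes that took 3 clearly separated levels in the equine lung, heart and liver were examined. Counts of each library were divided by its size factor (the median ratio of the library to the geometric mean of the 12 libraries, over 8968 genes with at least 10 counts in every library), and the quotient is called the normalised count. A gene was taken as graded when the lowest of its 3 tissue medians was at least 20 normalised counts and both steps, from the lowest to the middle tissue and from the middle to the highest, lay between 4-fold and 20-fold. 2 identifiers were left out by rule. This gave 113 of the 31217 genes listed, or 1.10% of the 10249 genes whose lowest tissue median reached the floor of 20. The genes were thus chosen by their tissue medians, and differences between tissues are given below as a description, with no test.

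Some differences between organs are nearly all or none: a contractile protein of cardiac muscle or a secreted protein of the liver is made by a cell type that the other organs lack. A graded gene, as taken here, has a median of at least 20 normalised counts in every organ, at levels that stand apart. Single libraries can still hold no count of it. Mitochondria are present in nearly every cell but crowd the cardiac muscle fibre, and endothelium, connective tissue and macrophages are found in all organs in unequal number. The heart lives largely on fatty acids, ketone bodies and lactate. The liver makes ketone bodies, creatine and plasma proteins, and the lung is rich in vessels, epithelium and resident immune cells.

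The tissues were the caudal lobe of the right lung, the left ventricle of the heart and the right lobe of the liver of 4 healthy cold-blooded stallions aged 1 to 2 years, with no treatment and no manipulated gene. Polyadenylated RNA was sequenced in 1 library per tissue and horse, and replicates 1 to 4 of each tissue are horses 1 to 4. Each piece of tissue held many cell types, so that more cells of a type and more RNA per cell cannot be told apart. Groups of 4 libraries from 4 animals limit the precision of every value.

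Reads counted in genes ranged from 4345694 to 23474239 per library. The 9 cardiomyocyte markers with a paired identifier were highest in heart and the 11 hepatocyte markers highest in liver, whereas no marker of alveolar epithelium was paired, so that the lung label was checked only by PECAM1, an endothelial gene, and MARCO, a macrophage gene, which were both highest there. Heart replicate 2 stood apart: the 11 hepatocyte markers summed to 72615 normalised counts in it, against 1267, 5453 and 2449.7 in heart replicates 1, 3 and 4 and 2178355 to 3255560.2 in the liver libraries, and all 11 were highest in it among heart libraries. The sum in heart replicate 2 was 2.85% of the liver median. The graded genes that were not graded without it are named below.

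The 113 graded genes fell into all 6 possible orders of the tissues. From high to low, 21 followed heart-liver-lung, 22 heart-lung-liver, 11 lung-heart-liver, 25 lung-liver-heart, 13 liver-heart-lung and 21 liver-lung-heart. Lung was thus the highest tissue of 36, heart of 43 and liver of 34 graded genes, beside 3729, 3209 and 3311 of all genes past the floor. As shares, these were 31.9%, 38.1% and 30.1% of the graded genes and 36.4%, 31.3% and 32.3% of the genes past the floor. The lung-heart-liver order held the smallest share, 0.561% of its genes past the floor, and heart-liver-lung the largest, 1.42%. The median lower step was 6.43-fold and the median upper step 6.78-fold, so that a typical graded gene spanned 44.3-fold over the 3 tissues (range 17.2-fold to 215-fold). The upper step was the larger in 65 genes and the lower step in 48.

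**Figure D1:**
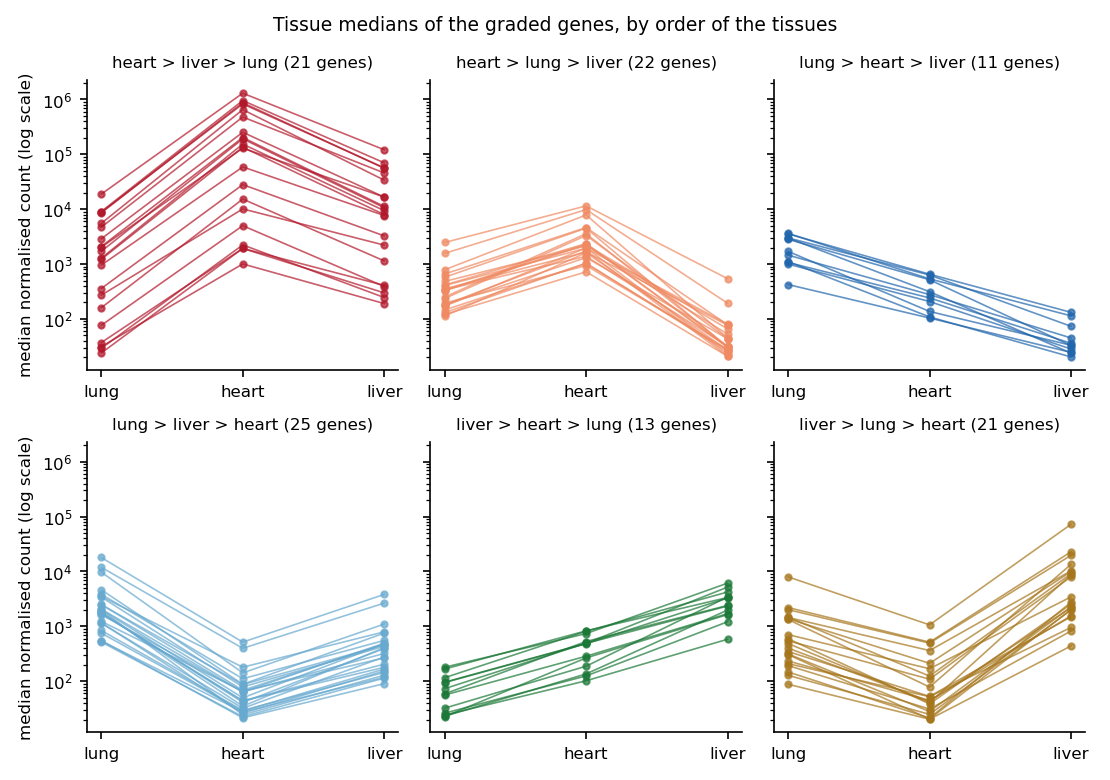
Median normalised count (log scale) of each graded gene in lung, heart and liver, 1 panel per order of the tissues and 1 line per gene, each point being the median of 4 libraries. The heart-liver-lung panel of 21 genes reaches 1302323 in heart (MT-ATP6), whereas the highest median of the other panels is 72538 (FN1 in liver).

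A symbol was paired by the study with 63 of the 113 identifiers (55.8%, beside 23.8% of genes past the floor), and 53 of these symbols were found in the RefSeq gene table, all as protein-coding genes. The pairing was uneven, with a symbol for 5 of the 36 graded genes highest in lung, 35 of the 43 highest in heart and 23 of the 34 highest in liver. The pairing was read from shortened copies of the study's supplement, and the part read covers mostly genes called lower in lung. The paper itself counts more genes up than down in lung against heart and against liver. The unevenness need not hold for the full supplement. Functions are therefore known here for few of the lung genes, and no gene group of the lung can be judged from these names.

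**Figure D2:**
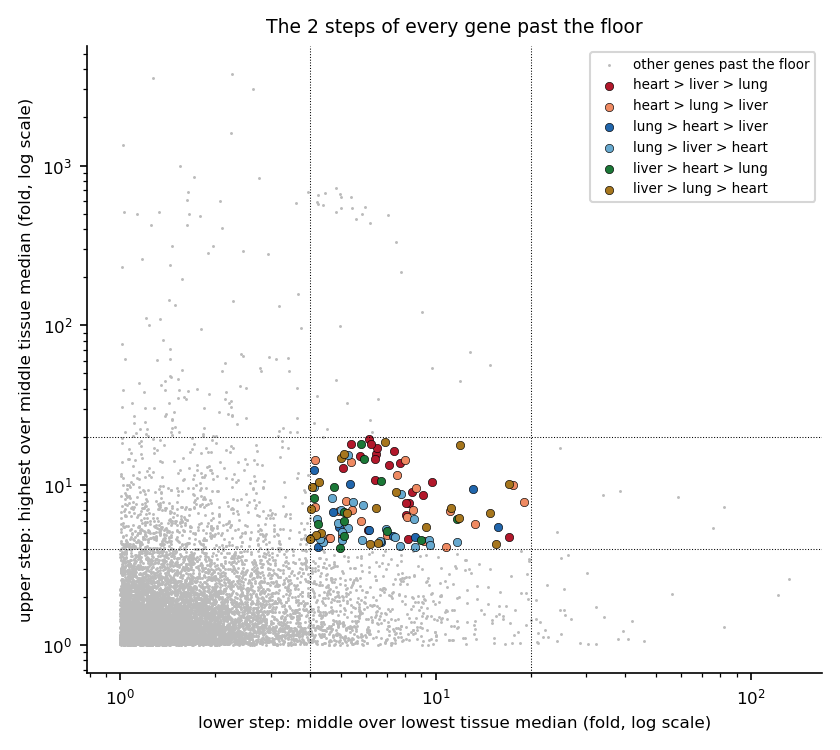
Lower step (middle over lowest tissue median) against upper step (highest over middle tissue median), both as folds on log scales, for the 10249 genes past the floor. Coloured points are the 113 graded genes by order of the tissues, grey points all others, and dotted lines the bounds of 4-fold and 20-fold that chose them.

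The levels held apart library by library. In 106 of the 113 graded genes (93.8%) neither gap between neighbouring tissues was crossed by any library, beside 20.4% of genes past the floor, and in 109 the order was the same in all 4 horses, beside 36.6%. These counts follow in part from the rule, which asks for wide steps, and are given as a description. Within horses, the upper step averaged 2.70 and the lower step 2.69 on the log2 scale (median over graded genes of the mean of 4 horses, each log2 of the normalised count plus 0.5). The 7 genes with an overlap were spread over 4 orders, and MME, QPRT and 5 identifiers without a symbol made up this number.

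The scale on which libraries were compared mattered for which genes were graded. Scaling by library totals in place of size factors raised lung by 1.65 relative to heart and by 1.42 relative to liver on the log2 scale, and lowered heart by 0.23 relative to liver, for every gene alike. On that scale 196 genes were graded and only 25 of the 113 were among them, and 82 of the 113 kept both gaps free of overlap. With TMM scaling 112 genes were graded.

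Mitochondrially encoded genes formed the largest named group. 10 of them were graded, all in the heart-liver-lung order, and they encode subunits of the respiratory chain and of ATP synthase: MT-ND1, MT-ND2, MT-ND3, MT-ND4L and MT-ND5 of complex I, MT-CYB of complex III, MT-CO2 and MT-CO3 of cytochrome c oxidase, and MT-ATP6 and MT-ATP8 of ATP synthase. MT-ND1 (ENSECAG00000027684) had 9422, 8255, 8521 and 8659 normalised counts in lung, 788053, 634573, 1087453 and 955519 in heart and 54560.4, 49285, 56875 and 74217 in liver. No library of a tissue reached the range of another. The steps of MT-ND1 were 6.49-fold between lung and liver and 15.6-fold between heart and liver, and within horses its log2 ratio was -6.61 ± 0.34 for lung over heart, -2.74 ± 0.26 for lung over liver and 3.87 ± 0.27 for heart over liver (mean ± SD, n = 4 horses, as for all such ratios below).

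MT-CO2 (ENSECAG00000027692) had 10889.5, 7192, 9344 and 8799 normalised counts in lung, 983906, 840098, 931414 and 1262696 in heart and 73616, 50332, 66353 and 83869.8 in liver. MT-CYB (ENSECAG00000027669) had 8021, 4129.9, 6239.9 and 4794 normalised counts in lung, 720192, 361819, 889647 and 586187 in heart and 41324, 16717, 38939 and 28749 in liver. MT-CYB had the widest step between heart and liver among the 10 genes, and both genes kept the 3 tissues apart in every horse. MT-ATP8 (ENSECAG00000027679) had 2005, 2046, 1475 and 2359 normalised counts in lung, 111107, 106787, 147855 and 177063 in heart and 17212, 16112, 12173 and 19913 in liver. Its steps were the most even of the group, 8.23-fold between lung and liver and 7.77-fold between heart and liver. Over the 10 genes, the step between lung and liver ran from 5.40-fold to 9.73-fold (median 6.46-fold) and the step between heart and liver from 7.77-fold to 19.3-fold (median 14.2-fold). MT-ND4 and MT-ND6 had the same order but lay just outside the rule, with 21.4-fold and 22.6-fold between heart and liver. MT-ATP6 overlaps MT-ATP8 and MT-ND4L overlaps MT-ND4 on the mitochondrial genome, and nuclear copies of mitochondrial sequence exist. Reads that fitted more than 1 gene stayed uncounted. They made up 5.07% to 7.29% of a heart file and 1.78% to 2.92% of a lung or liver file. Reads that matched several places stayed uncounted too, 9.24% to 10.8% in heart and 5.17% to 7.45% in lung or liver. The counts of single genes are thus uncertain, and the mitochondrial part of these reads was not tested.

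Together the 10 genes took 0.954% ± 0.185 of all gene counts in lung, 27.4% ± 5.50 in heart and 2.39% ± 0.431 in liver (mean ± SD, n = 4 each). The other 103 graded genes took 2.30% ± 0.440 in lung, 3.16% ± 0.390 in heart and 1.81% ± 0.311 in liver. Heart replicate 2, with 19.8%, had the smallest share of the 10 mitochondrially encoded genes among the heart libraries. It was the lowest heart library for 9 of the 10 genes. The same horse had the lowest liver library for 6 of the 10 and the lowest lung library for 5. The genes lie on 1 genome, so these are not separate observations, and no count over all genes was set beside them.

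**Figure D3:**
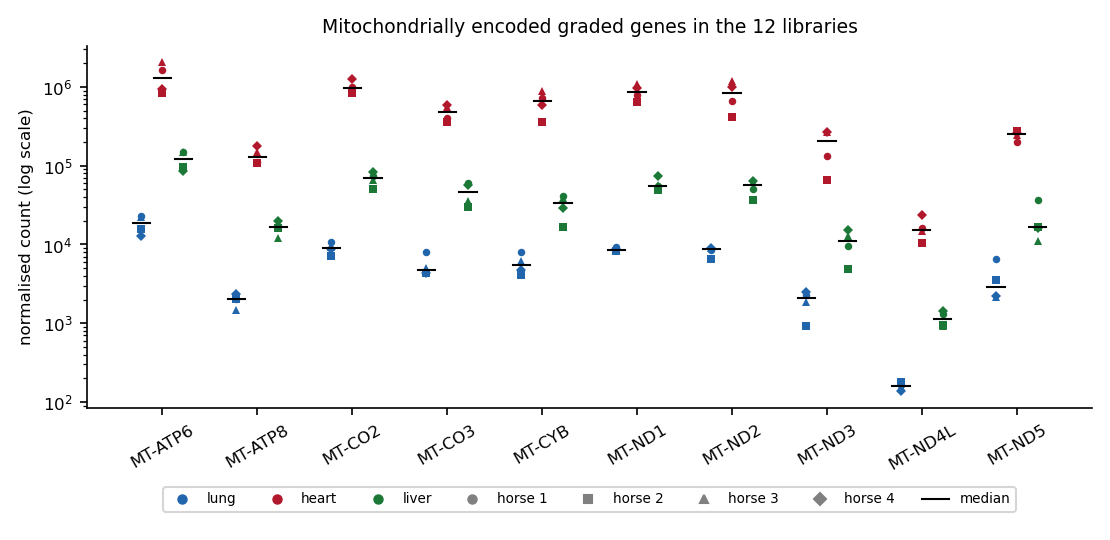
Normalised count (log scale) of the 10 graded mitochondrially encoded genes in the 12 libraries; colours are the tissues (lung, heart and liver from left to right), symbols the horses, and black lines the medians of 4 libraries. Every heart library lies above every liver library and every liver library above every lung library for each gene.

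Nuclear genes of the same order included a mitochondrial carrier and genes of connective tissue and vessel wall. SLC25A4 is the ADP/ATP carrier of the inner mitochondrial membrane that prevails in muscle. It had 365, 353, 379 and 329 normalised counts in lung, 22906, 21259, 33283 and 34177 in heart and 3745, 2782, 2718 and 4084 in liver. Its steps were almost equal, 9.09-fold between lung and liver and 8.61-fold between heart and liver, and the lung libraries spread little (SD of log2 0.09). LAMA2, the laminin chain of the basement membrane of muscle, and DPT, a small protein of the collagen matrix, were lowest in lung. LAMA2 (ENSECAG00000023844) had 75.4, 82.5, 32.6 and 77.6 normalised counts in lung, 4860.3, 4729.7, 5175 and 5167 in heart and 911, 345, 302 and 436 in liver. DPT (ENSECAG00000016101) had 22.8, 35.7, 18.7 and 37.8 normalised counts in lung, 2308, 2602, 2156 and 2169 in heart and 235, 257, 214 and 272 in liver. For LAMA2 the liver library of horse 1 was the highest of its tissue and still far under the heart libraries. RGS5 is a regulator of G protein signalling used as a marker of pericytes and vascular smooth muscle. It was the only marker gene of the fixed cell type lists among the graded genes, and 1 of 3 of its list past the floor. LMOD1 and DES of the same list followed heart-lung-liver instead, with medians of 179 and 623 in lung and 46.1 and 195 in liver. RGS5 (ENSECAG00000023668) had 48.7, 27.03, 20.8 and 14.97 normalised counts in lung, 2011, 2068, 985 and 1859 in heart and 492, 385, 432 and 189 in liver. Its step between lung and liver, 17.1-fold, was much wider than that between heart and liver, 4.74-fold, and heart replicate 3 was the lowest heart library.

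In the heart-lung-liver order, liver was the lowest tissue, and the named genes included mitochondrial enzymes that activate ketone bodies or acetate. OXCT1 is the mitochondrial transferase that activates ketone bodies for oxidation. It had 563, 733, 439 and 588 normalised counts in lung, 3767, 2212, 5274 and 5559 in heart and 36.7, 23.8, 18.7 and 43.6 in liver. Its lung-liver step of 19.02-fold was the widest lower step of all graded genes, and within horses the log2 ratio was -2.79 ± 0.87 for lung over heart, 4.27 ± 0.54 for lung over liver and 7.06 ± 0.72 for heart over liver. ACSS1 is the mitochondrial enzyme that activates acetate. ACSS1 (ENSECAG00000023870) had 544, 875, 627 and 693 normalised counts in lung, 3199, 2510.4, 6079 and 7625 in heart and 74.7, 85.7, 81.2 and 65.4 in liver. For both enzymes, every liver library lay below every lung library.

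IDH3A, the catalytic subunit of the NAD-dependent isocitrate dehydrogenase of the citrate cycle, and PKM, the pyruvate kinase of muscle and of most tissues other than liver, had nearly equal steps. IDH3A (ENSECAG00000015278) had 576, 398, 415 and 383 normalised counts in lung, 1657, 1458, 2239.8 and 2797 in heart and 73.4, 87.7, 93.7 and 54.5 in liver. PKM (ENSECAG00000007644) had 2530.1, 2315, 2862 and 2423 normalised counts in lung, 8702, 5096, 14306 and 15965 in heart and 473, 540.2, 629 and 541 in liver. The steps of PKM were 4.65-fold between lung and heart and 4.58-fold between lung and liver, and those of IDH3A 4.79-fold between lung and heart and 5.05-fold between lung and liver. The tissues did not overlap for either gene, but the heart libraries themselves spread: PKM in heart replicate 4 was 3.13 times heart replicate 2, whereas the lung libraries lay within 1.24-fold. PRDX2, a peroxiredoxin that removes hydrogen peroxide and is abundant in red blood cells, had one of the widest spans. PRDX2 (ENSECAG00000011541) had 698, 839, 758 and 820.2 normalised counts in lung, 6927, 5745, 10526 and 8786 in heart and 35.3, 47.6, 42.5 and 47.2 in liver. It spanned 175-fold between heart and liver, and no library of a tissue reached the range of another.

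Other genes of this order belong to the muscle cytoskeleton and the matrix. SYNM encodes synemin, an intermediate filament protein that links desmin to the membrane. SYNM (ENSECAG00000000487) had 285, 217, 184 and 296 normalised counts in lung, 3712, 2472, 3459 and 4001 in heart and 53.00, 19.1, 16.2 and 43.6 in liver. PDLIM1 encodes a PDZ and LIM domain protein of actin stress fibres and the Z-disc. PDLIM1 (ENSECAG00000020816) had 1634, 1586, 1396 and 1549 normalised counts in lung, 9483, 6947, 12495 and 10219 in heart and 144, 314, 157 and 229 in liver. Within horses the lung over heart log2 ratio was -3.80 ± 0.30 for SYNM and -2.64 ± 0.43 for PDLIM1, and the heart over liver ratio 6.82 ± 0.68 and 5.57 ± 0.81. COL5A3, a chain of type V collagen, and FBLN5, a protein of the elastic fibre, were of the matrix list. COL5A3 (ENSECAG00000007647) had 319, 405, 162 and 331 normalised counts in lung, 2292, 2932, 2053 and 2201 in heart and 51.6, 81.9, 43.7 and 79.9 in liver. FBLN5 (ENSECAG00000012066) had 368, 440.2, 192 and 315 normalised counts in lung, 1502, 1735, 1277 and 1110.1 in heart and 48.9, 84.8, 12.5 and 14.5 in liver. The liver libraries of FBLN5 differed among themselves, with 84.8 in horse 2 and 12.5 in horse 3, yet all were below every lung library.

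HSPA2, a heat shock protein of the HSP70 family, AGAP2, a GTPase-activating protein for ARF proteins, and ITIH5, a relative of the plasma inter-alpha-trypsin inhibitor chains, were also graded. HSPA2 (ENSECAG00000029421) had 129.6, 341, 180.1 and 183 normalised counts in lung, 1723, 1408, 3056 and 1741 in heart and 19.03, 22.9, 27.5 and 10.9 in liver. AGAP2 (ENSECAG00000023952) had 126, 65.2, 213 and 115 normalised counts in lung, 899, 576, 871 and 492 in heart and 24.5, 20.01, 19.98 and 21.8 in liver. ITIH5 (ENSECAG00000003260) had 277, 139, 156 and 232 normalised counts in lung, 1361, 996, 403 and 886 in heart and 47.6, 20.01, 26.2 and 29.1 in liver. All 3 showed heart on top in each horse. HSPA2 and AGAP2 both had a liver median of 20.9, close to the floor of 20. Of the 12 fits that left out 1 library, HSPA2 was not graded in 5 and AGAP2 in 3. The steps were 9.54-fold between lung and heart and 8.67-fold between lung and liver for HSPA2, 5.995-fold between lung and heart and 5.78-fold between lung and liver for AGAP2 and 4.86-fold between lung and heart and 7.01-fold between lung and liver for ITIH5. ITIH5 was the only graded gene among the 40 of the list of plasma proteins past the floor (2.50%). Unlike the 70 of 73 genes of that list that were lower in lung than in liver, it was lowest in liver.

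Of the 36 graded genes highest in lung, 5 had a symbol. ACVRL1 (ALK1), a receptor of endothelial cells for BMP9 and BMP10, and PPL (periplakin), a linker of intermediate filaments to cell junctions in epithelia, followed the lung-heart-liver order. ACVRL1 (ENSECAG00000009133) had 3319, 2336, 2995 and 3024 normalised counts in lung, 773, 491, 900.3 and 423 in heart and 69.3, 73.4, 73.7 and 76.3 in liver. The liver libraries lay within 1.10-fold, and the steps were 4.76-fold between lung and heart and 8.60-fold between heart and liver. PPL (ENSECAG00000014320) had 2945, 3412, 2218 and 2726 normalised counts in lung, 679, 623, 329 and 414 in heart and 33.98, 31.4, 27.5 and 50.9 in liver. Its steps were 5.47-fold between lung and heart and 15.8-fold between heart and liver. PECAM1, the endothelial marker with a paired identifier, summed to 4917 to 11255 in lung, 4659 to 5710.3 in heart and 633 to 953 in liver. Its lung and heart ranges overlapped. Those of ACVRL1 did not, but the rule asked for at least 4-fold between its tissues, and nothing is read from this. The part of endothelium in the ACVRL1 levels was not tested.

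LIFR, SYK and RAB11FIP1 followed lung-liver-heart. LIFR is the receptor subunit for leukemia inhibitory factor. LIFR (ENSECAG00000020208) had 2895, 999, 1675 and 2458 normalised counts in lung, 51.04, 146, 76.9 and 43.03 in heart and 656, 412, 313 and 578 in liver. SYK is the tyrosine kinase through which B cell and Fc receptors signal in blood cells, macrophages included. SYK (ENSECAG00000009488) had 737, 653, 1169 and 947 normalised counts in lung, 30.1, 53.8, 7.32 and 28.7 in heart and 118, 133, 206 and 156 in liver. RAB11FIP1 is an effector of RAB11 in the recycling of membrane proteins. RAB11FIP1 (ENSECAG00000016134) had 2055, 1719, 1766 and 1534 normalised counts in lung, 53.5, 49.3, 36.6 and 38.2 in heart and 181, 173, 196 and 178 in liver. Heart was the lowest tissue of each in all 4 horses, and for LIFR and SYK heart replicate 2 was the highest heart library. MARCO, the macrophage marker with a paired identifier, lay between 7830.3 and 27776 in lung, 18.4 and 246 in heart and 885 and 4822 in liver, thus in the same order of tissues, and heart replicate 2 was again its highest heart library; its part in the SYK levels was not tested.

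The remaining 31 graded genes highest in lung had no symbol. The widest in span of the lung-liver-heart order was ENSECAG00000009625, chosen after its values were seen. It had 2084, 1894, 3040.0 and 1217 normalised counts in lung, 3.35, 58.2, 40.3 and 8.61 in heart and 137, 366, 119.9 and 94.5 in liver. The heart libraries overlapped no other tissue but ranged over 17.4-fold. Without heart replicate 2 its heart median was 8.95 in place of 24.4, under the floor, and its span 231-fold in place of 81.4-fold, and it was not graded without any one of the 4 heart libraries. ENSECAG00000012134 lay just above the floor. It had 1408, 769.8, 819 and 1408 normalised counts in lung, 119.6, 52.3, 98.8 and 119 in heart and 38.1, 61.9, 2.50 and 0 in liver. Its liver libraries fell into high values in horses 1 and 2 and values at or near 0 in horses 3 and 4, and liver and heart overlapped, so that its lower step rests on few counts.

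Named genes of the liver-heart-lung order included mitochondrial and amino acid enzymes. CPT2 releases long-chain fatty acids from carnitine inside the mitochondrion for oxidation. CPT2 (ENSECAG00000022130) had 173, 153, 160.4 and 214 normalised counts in lung, 836, 671, 819.8 and 895 in heart and 3365, 3354, 3993 and 3059 in liver. Its steps were close to equal, 4.97-fold between lung and heart and 4.06-fold between heart and liver, and within horses the log2 ratio was -2.20 ± 0.13 for lung over heart, -4.30 ± 0.34 for lung over liver and -2.10 ± 0.26 for heart over liver. OGDHL is an isoenzyme of the oxoglutarate dehydrogenase subunit of the citrate cycle. OGDHL (ENSECAG00000002917) had 81.7, 110.0, 211 and 48.3 normalised counts in lung, 602, 267, 421 and 559 in heart and 2613, 1642, 2809 and 2089 in liver. GAMT makes creatine, the energy buffer that muscle takes up from the blood. GAMT (ENSECAG00000009689) had 74.6, 71.9, 91.2 and 58.2 normalised counts in lung, 305, 594, 611 and 390.1 in heart and 6786, 5486, 4904 and 4349 in liver. GSTZ1 is maleylacetoacetate isomerase of tyrosine breakdown. GSTZ1 (ENSECAG00000011265) had 33.8, 30.9, 18.7 and 43.2 normalised counts in lung, 115, 226, 150.1 and 236 in heart and 3709, 3143, 3803 and 2885 in liver. For GAMT and GSTZ1 the step between heart and liver, 10.6-fold and 18.2-fold, was wider than that between lung and heart, 6.72-fold and 5.81-fold.

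SLC39A14 (ZIP14) imports zinc, iron and manganese into hepatocytes, and PCSK6 is a secreted proprotein convertase that in the heart activates corin. SLC39A14 (ENSECAG00000008287) had 229, 177, 183 and 115 normalised counts in lung, 638, 709, 798 and 768 in heart and 5610.0, 6249.9, 9172 and 6024 in liver. PCSK6 (ENSECAG00000001688) had 189, 116, 89.7 and 116 normalised counts in lung, 1022, 863, 553 and 766 in heart and 5085, 4049, 4405 and 4055 in liver. The tissues were apart in both. MME, the membrane metalloendopeptidase neprilysin, was an exception. MME (ENSECAG00000009138) had 29.8, 122, 17.2 and 18.4 normalised counts in lung, 91.2, 114, 58.6 and 162 in heart and 1243, 465, 508 and 658 in liver. Lung replicate 2 lay above 3 of the 4 heart libraries, and the order was kept in 3 of 4 horses. The other lung libraries lay between 17.2 and 29.8.

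In the liver-lung-heart order, heart was the lowest tissue. INMT methylates tryptamine and related amines. INMT (ENSECAG00000014579) had 526, 466, 433 and 509 normalised counts in lung, 48.5, 273, 32.9 and 15.3 in heart and 8933, 6020.3, 10698 and 8563 in liver. It spanned 215-fold, the widest of all graded genes, while its lung libraries lay within 1.21-fold of each other. CYB5A is the electron donor of desaturases and cytochromes P450, and ABCA1 exports cholesterol to apolipoprotein A-I. CYB5A (ENSECAG00000017581) had 1528, 1691, 909.7 and 1378 normalised counts in lung, 273, 588, 366 and 358 in heart and 11427, 11043, 8069 and 9515 in liver. Its step between lung and heart was 4.02-fold, close to the bound, and it was not graded in 5 of the 12 fits that left out 1 library. ABCA1 (ENSECAG00000008852) had 397, 179, 454 and 407 normalised counts in lung, 52.7, 142, 0 and 33.5 in heart and 2207, 1911, 2629 and 2213 in liver. ABCA1 had no count in heart replicate 3, where a count of 0 allows up to 3 counts, and the highest heart library stayed below the lowest lung library.

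FN1 encodes fibronectin, which hepatocytes secrete into plasma and other cells lay down in the matrix. FN1 (ENSECAG00000000701) had 13308, 9279, 6679.8 and 6683 normalised counts in lung, 1120.3, 3311, 809 and 1009 in heart and 109871, 62303, 80966 and 64109 in liver. CEBPA is a transcription factor of hepatocytes, of fat cells and of the myeloid lineage, and MET is the receptor for hepatocyte growth factor on epithelia. CEBPA (ENSECAG00000032515) had 295, 317, 405 and 242 normalised counts in lung, 11.7, 85.1, 29.3 and 4.78 in heart and 1772, 2673, 2303 and 1482 in liver. MET (ENSECAG00000010385) had 612, 893, 406 and 582 normalised counts in lung, 25.9, 122, 51.2 and 11.5 in heart and 3365, 2439.9, 2586 and 2492 in liver. For all 3 genes, heart replicate 2 was the highest heart library. Without it, CEBPA had a heart median of 12.2 in place of 20.5, under the floor, and MET a step of 22.9-fold in place of 15.5-fold between lung and heart, over the bound, so that neither was graded. SLC31A1 (CTR1) is the main copper importer and STARD5 a carrier of bile acids and sterols. SLC31A1 (ENSECAG00000019587) had 243, 464, 334 and 294 normalised counts in lung, 27.6, 61.2, 7.32 and 28.7 in heart and 2052, 1730.1, 3116 and 2456 in liver. STARD5 (ENSECAG00000021812) had 222, 294, 247 and 185 normalised counts in lung, 45.2, 148, 18.3 and 43.98 in heart and 1261, 1563, 1594 and 1548 in liver. LAD1, an anchoring protein of basement membranes, had the smallest span of the named genes of this order, 21.6-fold. Without heart replicate 2 its heart median was 15.7 in place of 20.3, and it was not graded. VSIG4 is the complement receptor of resident macrophages such as Kupffer cells. VSIG4 (ENSECAG00000023766) had 139, 90.7, 116 and 143 normalised counts in lung, 24.3, 83.6, 25.6 and 19.1 in heart and 2274, 1379, 6028 and 1697 in liver. Liver replicate 3 had the highest VSIG4 of its tissue, as it had of MARCO, at 4822 against 885 to 1973 in the other liver libraries.

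**Figure D4:**
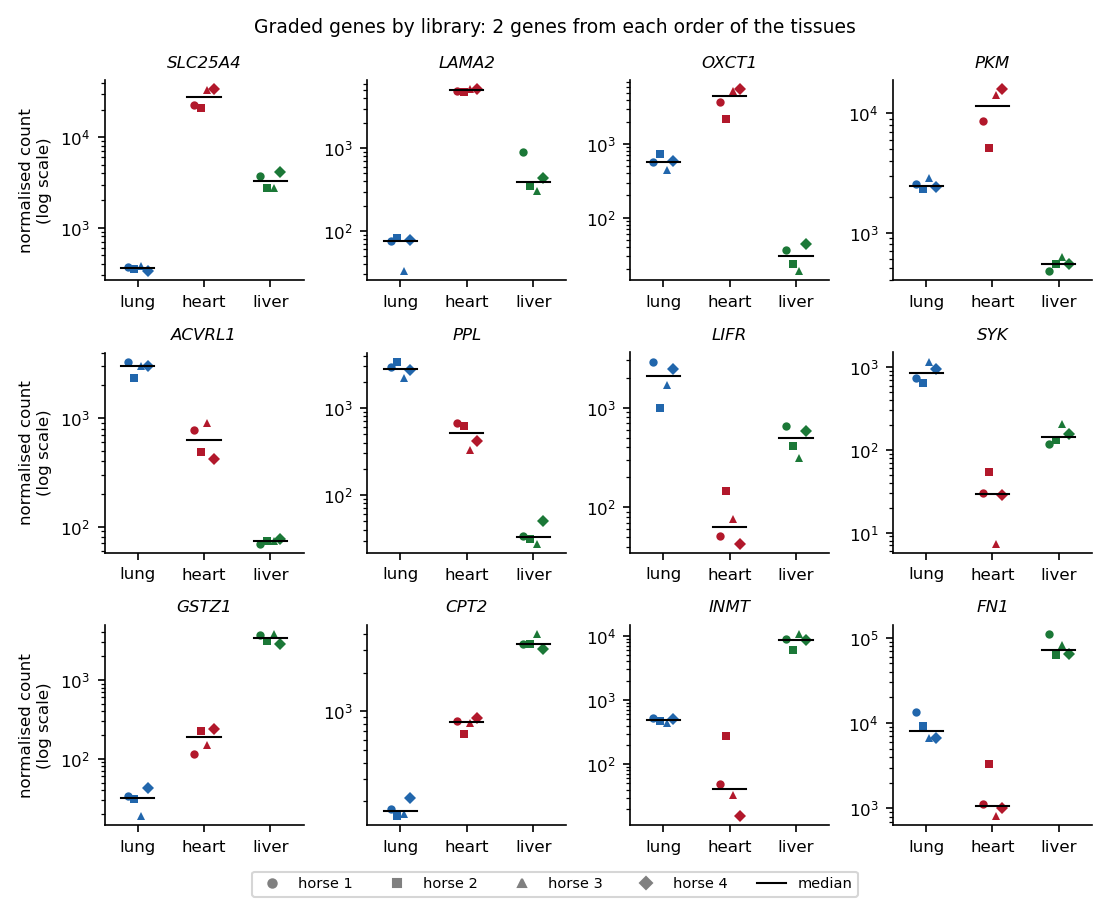
Normalised counts (log scale, axes differ between panels) of 12 named graded genes, 2 from each order, in the lung, heart and liver libraries from left to right; symbols are the horses and black lines the medians of 4 libraries. The squares of horse 2 stand above the other heart libraries for LIFR, SYK, INMT and FN1.

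Heart replicate 2 touched the orders in which heart was lowest. It was the highest heart library for 20 of the 21 liver-lung-heart genes (95.2%), beside 41.4% of all genes of this order past the floor, and for 16 of the 25 lung-liver-heart genes (64.0%), beside 48.0%. In the 43 graded genes highest in heart, it was the highest heart library for 6 (14.0%), the same share as among all genes highest in heart (14.0%). For the liver-lung-heart genes, its level was a median of 3.03 times the median of the other heart libraries (up to 17.3 times). Over all genes of this order past the floor, the level was 1.11 times (up to 42.4 times). The level was 1.87 times for lung-liver-heart, beside 1.18, and 0.736 times for heart-liver-lung, beside 0.821. The hepatocyte marker sum moved with it, as given above, and its part in these values was not tested.

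Leaving this library out moved single genes across the bounds more than it moved the counts. Without heart replicate 2, 110 genes were graded and 93 of them were among the 113. The 20 that were no longer graded were MT-CYB, MT-ND3, FBLN5, ACVRL1, CPT2, GSTZ1, MME, CEBPA, LAD1, MET and QPRT and 9 identifiers without a symbol. Other libraries decided membership too: 54 of the 113 genes were graded in all 12 fits that left out 1 library, while LAD1 and QPRT were not graded in 8 of the 12 and ENSECAG00000012134 in 9. The liver-lung-heart order then held 20 genes, of which 15 were shared with its 21, and the lung-liver-heart order 27, of which 21 were shared with its 25. Of the 113 genes, 109 in place of 106 had both gaps free of overlap.

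Spread between animals was wider for graded genes than for genes past the floor as a whole. Membership itself turned on single libraries for many genes, so that this is a description and not independent of the rule. The SD of log2 normalised counts over the 4 libraries had a median over graded genes of 0.45 in lung, 0.53 in heart and 0.42 in liver, beside 0.22, 0.33 and 0.29 over all genes past the floor. It was largest in the heart libraries of the liver-lung-heart genes, 1.03, beside 0.33 for all genes of that order. Without heart replicate 2 the median for heart was 0.45. In at least 1 library, 34 of the 113 genes had fewer than 10 raw counts, where counting error is large; its part in the spread was not tested.

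Whether graded genes differed between horses was tested, since the rule compared tissue medians and not animals. Single libraries still decided membership, as given above, so that the rule and the spread between animals are not independent. The shares of graded genes beside all genes are therefore a description. In edgeR's quasi-likelihood test of the 4 horses with tissue in the model, 163 of 15436 genes tested (1.06%) passed a Benjamini-Hochberg adjusted p below 0.05, and 3 of the 113 graded genes (2.65%) were among them. At an unadjusted p below 0.05 the counts were 1575 of all genes (10.2%) and 25 of the graded genes (22.1%). None of the 3 genes had a symbol. With DESeq2's likelihood ratio test 12 graded genes and 516 of all genes passed, the same 3 among them.

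ENSECAG00000028173, of the heart-liver-lung order, had the smallest p. It had 443, 2558, 499.7 and 1938 normalised counts in lung, 43869, 203562, 66522 and 219187 in heart and 2982, 13966, 2620.1 and 12934 in liver. Horses 2 and 4 were high and horses 1 and 3 low in each of the 3 tissues, and the fitted log2 difference from horse 1 was 2.35 for horse 2, 0.21 for horse 3 and 2.21 for horse 4 (edgeR, adjusted p = 0.00214). It was called in all 12 fits that left out 1 library. The tissue steps were nevertheless 6.53-fold between lung and liver and 16.97-fold between heart and liver over the medians, and no library of a tissue crossed into another.

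ENSECAG00000019269, of the liver-heart-lung order, was lowest in horse 1 and highest in horse 2 in every tissue. It had 54.2, 156, 90.3 and 98.7 normalised counts in lung, 297, 672, 476 and 494 in heart and 1839, 3821, 2817 and 3757 in liver. The fitted log2 difference of horse 2 from horse 1 was 1.27 (edgeR, adjusted p = 0.018). ENSECAG00000006663, of the lung-liver-heart order, was lowest in horse 1 in every tissue. It had 1774, 2780.5, 5361 and 2236 normalised counts in lung, 38.5, 112, 84.2 and 52.6 in heart and 232, 558, 924 and 392 in liver. Horse 3 was the highest in lung and liver and horse 2 in heart, and the fitted log2 difference from horse 1 was 1.65 for horse 3 (edgeR, adjusted p = 0.0203). Both lost the call when lung replicate 1 or liver replicate 1 was left out, ENSECAG00000019269 also without lung replicate 2, and ENSECAG00000006663 also without lung replicate 3 or 4 or liver replicate 3 or 4. Without heart replicate 2, 5 graded genes passed, ENSECAG00000019111 and ENSECAG00000031960 beside these 3.

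Next by p came MT-ND3 and ENSECAG00000014896, which did not pass (edgeR, adjusted p = 0.0846 and 0.116). MT-ND3 (ENSECAG00000027695) had 2289.8, 935, 1871 and 2459.5 normalised counts in lung, 134626, 65664, 270923 and 271311 in heart and 9482, 4918, 12968 and 15132 in liver. Horse 2 had the lowest MT-ND3 in all 3 tissues, with a fitted log2 difference from horse 1 of -1.08. ENSECAG00000014896 had 477, 452, 845 and 624 normalised counts in lung, 20.1, 17.9, 32.9 and 22.9 in heart and 53.00, 79.1, 166 and 102 in liver. Horse 3 was the highest in each tissue, with a fitted log2 difference from horse 1 of 1.09.

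**Figure D5:**
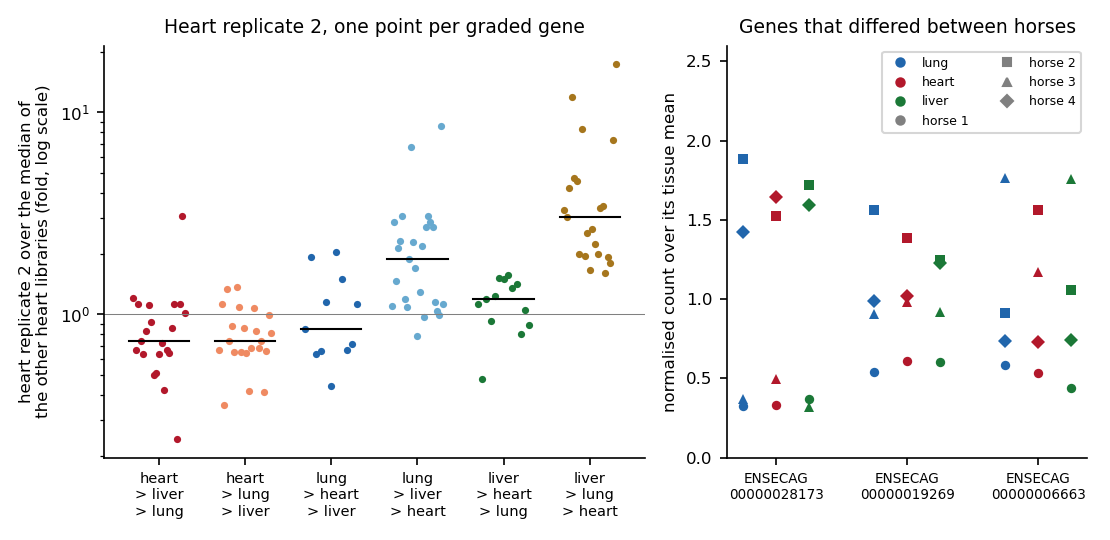
Left, heart replicate 2 over the median of the other 3 heart libraries (fold, log scale), 1 point per graded gene by order, with black lines at the medians. These are 3.03 for liver-lung-heart and 0.736 for heart-liver-lung, beside 1.11 and 0.821 for all genes of these orders past the floor (not drawn). Right, normalised count divided by its tissue mean for the 3 graded genes that passed the test of horses, with tissues as colours (lung, heart and liver from left to right) and horses as symbols.

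The fit of the 3 tissues was also set beside the rule that chose the genes. At an adjusted p under 0.05 and a log2 fold change of 1 or more in either direction (edgeR's quasi-likelihood test), 2438 of 15436 genes (15.8%) passed in all 3 comparisons, lung against heart (LvsH), lung against liver (LvsLR) and heart against liver (HvsLR). 111 of the 113 graded genes did so, which the steps of at least 4-fold nearly ensure, and nothing is read from it. QPRT and MME were the others.

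Gene lists place the graded genes among their pathways. In the list of fatty acid oxidation and ketone bodies, 46 genes were tested. LvsH called 1 of them higher and 34 lower in lung, LvsLR 6 higher and 34 lower in lung, and HvsLR 13 higher and 23 lower in heart. Over all genes tested, these shares were 24.5% and 20.7% in LvsH, 31.1% and 19.4% in LvsLR, and 26.4% and 22.0% in HvsLR. Of its 40 genes past the floor, ACSS1, OXCT1 and CPT2 were graded (7.50%), the first 2 highest in heart and CPT2 in liver. Of all 2441 genes past the floor with a symbol, 63 were graded. In the list of the citrate cycle and respiratory chain (nuclear genes), 55 were tested, with 1 higher and 50 lower in lung in LvsH, 3 higher and 45 lower in lung in LvsLR, and 43 higher and 7 lower in heart in HvsLR. Of its 53 genes past the floor, SLC25A4, IDH3A and OGDHL were graded (5.66%). The median log2 difference of this list was -3.11 for LvsH, -1.67 for LvsLR and 1.57 for HvsLR, beside 0.03, 0.26 and 0.12 over all genes tested.

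The list of extracellular matrix and matrix enzymes held 31 tested genes. In LvsH 5 were higher and 18 lower in lung, in LvsLR 20 higher and 8 lower in lung, and in HvsLR 23 higher and 7 lower in heart. Of its 23 genes past the floor, 4 were graded (17.4%): LAMA2, COL5A3 and FBLN5, highest in heart, and FN1, highest in liver. Shares near this also occurred in shorter lists, 2 of 12 (16.7%) for immune cells and antigen presentation and 1 of 8 (12.5%) for epithelial genes. Of 78 tested genes of the sarcomere, muscle cytoskeleton and calcium handling, 77 were lower in lung in LvsH and 76 higher in heart in HvsLR. Of its 30 genes past the floor, PDLIM1 and SYNM were graded (6.67%). All genes of a list have a symbol, and 63 of the 2441 genes past the floor with a symbol were graded. That share is higher than the 1.10% of all genes past the floor. Of 39 genes of xenobiotic, alcohol and redox metabolism, 33 were lower in heart in HvsLR. None of its 31 genes past the floor was graded, and nothing is read from this beside 63 of the 2441 genes with a symbol. The symbols behind these lists come from shortened copies of the study's supplement. The part read covers genes called on these same samples, mostly as lower in lung. The directions of the lists are thus not independent evidence, and no share of graded genes was tested.

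Each bound of the rule had close neighbours. At the floor, ENSECAG00000012134 was inside with 20.3 and ENSECAG00000008568 outside with 19.8 normalised counts in the lowest tissue. For the lower step, ENSECAG00000031960 was inside with 4.01-fold and SEMA4G outside with 3.99-fold, and at its upper bound OXCT1 was inside with 19.0-fold and TUBA8 outside with 24.3-fold. For the upper step, CPT2 was inside with 4.06-fold and IL1R1 outside with 3.93-fold, and at its upper bound MT-CYB was inside with 19.3-fold and CTH outside with 20.1-fold. The floor alone kept out 326 genes, the minimum of the lower step 673, that of the upper step 651, and the maxima 7 and 34.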

How the data were processed

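RNA-seq libraries from the lung, heart and liver of 4 horses (12 libraries) were grouped by the labelled tissue and numbered by horse. The deposited files held raw read counts for each gene. Per the submitters' processing notes, the authors used FastQC for read quality, TopHat2 for alignment to EquCab3.0 and HTSeq for counting, without normalization; the authors compared tissues with DESeq2. No source used here states the strand setting, so that overlapping and antisense genes cannot be told apart, and reads matching several places are not counted, which lowers genes with near-identical copies. The labels and the study's methods name different RNA extraction kits.

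Size factors, medians and steps were computed in Python 3.11.15 with numpy 2.4.6 and pandas 2.3.3. Log2 values used a pseudocount of 0.5. Reads counted in genes ranged from 4345694 to 23474239 per library, and the rows of HTSeq that name no gene stayed out, of which reads outside genes made up 16.8% to 30.2% of a file. Intervals and limits for a count of 0 (3 counts) cover counting error only. Horses were compared with edgeR 4.0.16 (R 4.3.3, default filter on low counts by tissue, TMM scaling, robust quasi-likelihood F test of the horse terms beside tissue, Benjamini-Hochberg over the 15436 genes tested), checked on simulated data. Tissues were fitted without the horse. DESeq2 1.42.0 was an alternative; other scalings, floors, step bounds and leaving out each library were also tried.

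The horse number pairs the libraries because it is 1 animal. Deviations from tissue means correlated at a mean r of 0.238 across genes in the 12 same-horse pairs (0.124 to 0.578, all above 0.1). In the 36 pairs of different horses the mean r was -0.0793 (-0.414 to 0.239), and 5 of these pairs lay above 0.1. The ranges thus overlapped. Deviations from a tissue mean cancel over the horses, so that a positive same-horse mean forces a negative mean between horses. The value of -0.0793 is therefore no separate evidence on the pairing.

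Genes were named by rule: in each order, the 4 genes with a symbol and the highest median count and the 4 with the most equal steps (all, where 8 or fewer had a symbol), every graded gene in a fixed list, the 5 with the smallest p for horses, and the genes next to each bound. The mitochondrially encoded genes, QPRT and single identifiers were added after their values were seen. The members and lists were chosen with earlier results of these data known. The pairing, read from shortened copies of the study's supplement, gave 3749 symbols (placeholder names of open reading frames left out). The RefSeq table of another assembly pairs none of these identifiers. 1 gene that the rule named is counted but not reported here. No sequence or genome position is given.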

Additional observations from a re-analysis of the deposited data

Results flagged for a closer look

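In 147 groups of 4 libraries (49 named genes in 3 tissues), 8 (5.44%) held a library set apart. Its gap to the nearest other exceeded Dixon's 95% critical share of the range of the group. Chance passes this in about 1 in 20 groups, so that the total of 8 is near that share. Of the 8, 3 concerned heart replicate 2, all in the liver-lung-heart order. In that library FN1 had 3311 normalised counts, against 809 to 1120.3 in the other heart libraries, INMT 273, against 15.3 to 48.5, and VSIG4 83.6, against 19.1 to 25.6. The hepatocyte marker sum was 72615 in the same library, against 1267 to 5453 in the other heart libraries, and its part was not tested.

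Lung held 3 such values. IDH3A had 576 in lung replicate 1, against 383 to 415 in the others, MME had 122 in lung replicate 2, against 17.2 to 29.8, and LAMA2 had 32.6 in lung replicate 3, against 75.4 to 82.5. Liver replicate 1 held 2: MET had 3365 there, against 2439.9 to 2586 in the others, and STARD5 had 1261, against 1548 to 1594. None of these values carried a library into the range of another tissue, except that of MME, which lay among the heart libraries.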

How the results depend on the processing

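The number of graded genes moved from 113 to 196 with library totals as the scale, to 69 with a floor of 40, to 272 with steps of at least 3-fold and to 64 with steps of at least 5-fold. It stayed within 1.5 times with TMM scaling (112), size factors from genes with a count in every library (116), means (124), a floor of 10 (160) and no upper bound on the steps (154). Without single libraries it ranged from 99 to 125, with 92 to 101 genes shared with the 113. The graded genes that differed between horses numbered 3, and 12 with DESeq2's likelihood ratio test, while the count over all genes was 163, and 516 with DESeq2; the cause was not tested. Leaving out single libraries gave 1 to 5 graded genes and 82 to 207 genes in all. With horse as a replicate block, 110 graded genes passed in all 3 tissue comparisons in place of 111 (109 to 112 without single libraries, 85 with library totals); the list counts were fitted without the block only. Of the 98 steps of the 49 named genes under 16 alternatives, chosen after seeing the data as were those for the spread and the steps within horses, 68 moved by more than the spread between libraries, all under library totals, where the smallest step was 1.27-fold. Depth limits genes near the floor: 34 graded genes had fewer than 10 raw counts in some library.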
